A study of Mus musculus with 6 samples.

Results

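Transfer RNAs carry many modified nucleosides besides methyl groups, and the genes for 37 enzymes that make them were followed in whole mouse brain with and without TRMT1L. The members were chosen by name, as every gene of the list whose Ensembl identifier carries that symbol in GENCODE M21, and all 37 were found among the 55450 genes of the deposited tables. They cover the wobble uridine enzymes of cytosol (Elongator and the thiolation branch) and mitochondria, and the enzymes of threonylcarbamoyladenosine (t6A), isopentenyladenosine (i6A), queuosine, inosine, pseudouridine, dihydrouridine and wybutosine, with the tRNA-histidine guanylyltransferase. The rule itself uses names and no measured value, although the list was drawn up with earlier results of these data known.

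The study sequenced long RNA from total mouse brain in 3 TRMT1L KO and 3 WT libraries, called biological triplicates in the labels. RNA was size-selected to keep molecules above 200 bp, which leaves out tRNA itself, and libraries came from an Illumina TruSeq total RNA kit. TRMT1L is a relative of TRMT1, a tRNA guanosine methyltransferase. The labels used here give no strain, age, sex, litter or kind of mutant allele, so p-values measure the spread between these 6 libraries.

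Modified nucleosides in the anticodon loop tune how a tRNA reads codons, and those in its body help it fold. Wobble uridines receive a side chain built by Elongator and a sulfur delivered through the ubiquitin-like protein Urm1, and human variants in several of these genes cause neurological or mitochondrial disease. The purine next to the anticodon carries t6A, i6A or wybutosine, queuosine replaces a wobble guanosine, and ADAT2 with ADAT3 turns wobble adenosine into inosine. What was measured here is the messenger RNA of the enzymes, not enzyme activity or tRNA modification.

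Counts in genes ranged from 31201119 to 36145961 per library. Trmt1l, the targeted gene, was counted 1279, 1034 and 1158 times in WT and 93, 101 and 106 times in KO, so the labels held for all 6 libraries. Its log2 fold change, KO over WT throughout, was -3.58 (SE 0.0813; adjusted p = 6.95e-10, edgeR's quasi-likelihood test). Abundance is given below as CPM, the counts scaled to each library's total and TMM factor. Summed CPM of 6 neuron markers ranged from 4192 to 4358 in WT and from 4066 to 4298 in KO, and that of 4 liver markers did not pass 0.829 CPM in any library. The 5 choroid plexus markers, none of them at 0, summed to 308 to 363 CPM in WT and 368 to 440 CPM in KO, without overlap. Most of this sum was Ttr, with a mean of 293 CPM in WT and 359 CPM in KO. Taken singly, Ttr and Aqp1 did not overlap between the groups, while Kl, Folr1 and Clic6 did. The part of these markers in the values below was not tested. In bulk tissue, fewer cells of a type and less RNA per cell cannot be told apart.

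7 members share a start region with a protein-coding gene that runs the other way and does not overlap them at the start. The DNA between the start sites is shown because it lies ahead of both genes. Pairs that overlap at their starts were not counted, for members or for all genes. The 7 were 18.9% of the 37 members, against 9.07% of 15212 protein-coding genes tested that have such a neighbour within 1000 bases. Sequences are from RefSeq's promoter table (GRCm38.p6, 5′ to 3′ on the member's strand), cut between the GENCODE M21 start sites, with CCAAT in either orientation in capitals.
Elp4 and Immp1l (chr2:105904565-105904637, minus strand): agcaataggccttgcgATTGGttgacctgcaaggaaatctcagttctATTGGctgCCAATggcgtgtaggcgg
Osgep and Apex1 (chr14:50924894-50924967, minus strand): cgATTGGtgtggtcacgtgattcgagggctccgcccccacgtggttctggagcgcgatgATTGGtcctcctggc
Mocs3 and Dpm1 (chr2:168230592-168230621, plus strand): ggaaacggaagtcccttcccggctctttcc
Dus4l and Cog5 (chr12:31654827-31654868, minus strand): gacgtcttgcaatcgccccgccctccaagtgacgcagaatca
Pus3 and Ddx25 (chr9:35558529-35558594, plus strand): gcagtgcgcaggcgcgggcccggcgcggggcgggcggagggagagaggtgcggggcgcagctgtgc
Ctu2 and Rnf166 (chr8:122476065-122476142, plus strand): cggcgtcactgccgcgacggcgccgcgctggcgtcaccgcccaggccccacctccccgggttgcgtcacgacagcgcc
Tyw1 and Sbds (chr5:130255531-130255618, plus strand): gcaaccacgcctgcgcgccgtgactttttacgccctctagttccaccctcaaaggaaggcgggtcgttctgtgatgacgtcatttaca

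The stretch ahead of Elp4 holds 3 CCAAT matches in 73 bases, that of Osgep 2 in 74, and the other 5 stretches hold none. The starts of Mocs3 and Dpm1 are 30 bases apart, the shortest distance of the 7. Over whole 300-base promoters, CCAAT was found on either strand in 16 of the 34 members in the table (47.1%) and in 38.2% of 11814 protein-coding genes tested. The 8-base ETS core CCGGAAGT was found in 6 of 34 (17.6%, against 7.36%), namely Urm1, Trmu, Yrdc, Osgepl1, Dus1l and Thg1l. TATAAA was found in 3 (8.82%, against 7.37%) and the ATF4-type element TGATGNAA in 1 (2.94%, against 2.33%), all on both strands. A match in these windows is a description of letters, not a bound site. The members' promoters held a median of 19.5 CpG, against 20 in all, from 2 in Tprkb to 44 in Ctu2, Yrdc and Pus3. An observed-to-expected CpG ratio of at least 0.6 was found in 29 of 34 members (85.3%), against 67.1% of genes.

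How much of each messenger RNA the brain holds was compared per exon length, as TPM, counts divided by the union of annotated exons and scaled to the same total in each library. The median of the 37 members was 15.6 TPM, against 19.6 TPM over 15218 protein-coding genes tested. On this length, and not on that of the longest transcript given below, Elp3, the catalytic subunit of Elongator, stood highest at 78.0 ± 1.46 TPM in WT and 79.5 ± 5.51 TPM in KO (SD, n = 3 each), followed by the dihydrouridine synthase Dus3l at 71.0 ± 3.26 and 70.5 ± 2.01 TPM. The ranges of Elp3 and Dus3l overlapped over the 6 libraries, and below them Elp2, Elp5, the KEOPS subunit Tprkb and the isopentenyltransferase Trit1 followed in steps with no overlap, at 58.6, 51.0, 42.2 and 33.3 TPM over all libraries. From Dus1l (23.1 TPM) down to Ctu1 (6.03 TPM) most neighbours in the order could not be separated. In all, 8 of the 36 neighbouring pairs had ranges that did not overlap, the step from Ctu1 to Adat3, listed at 0, among them.

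**Figure D1:**
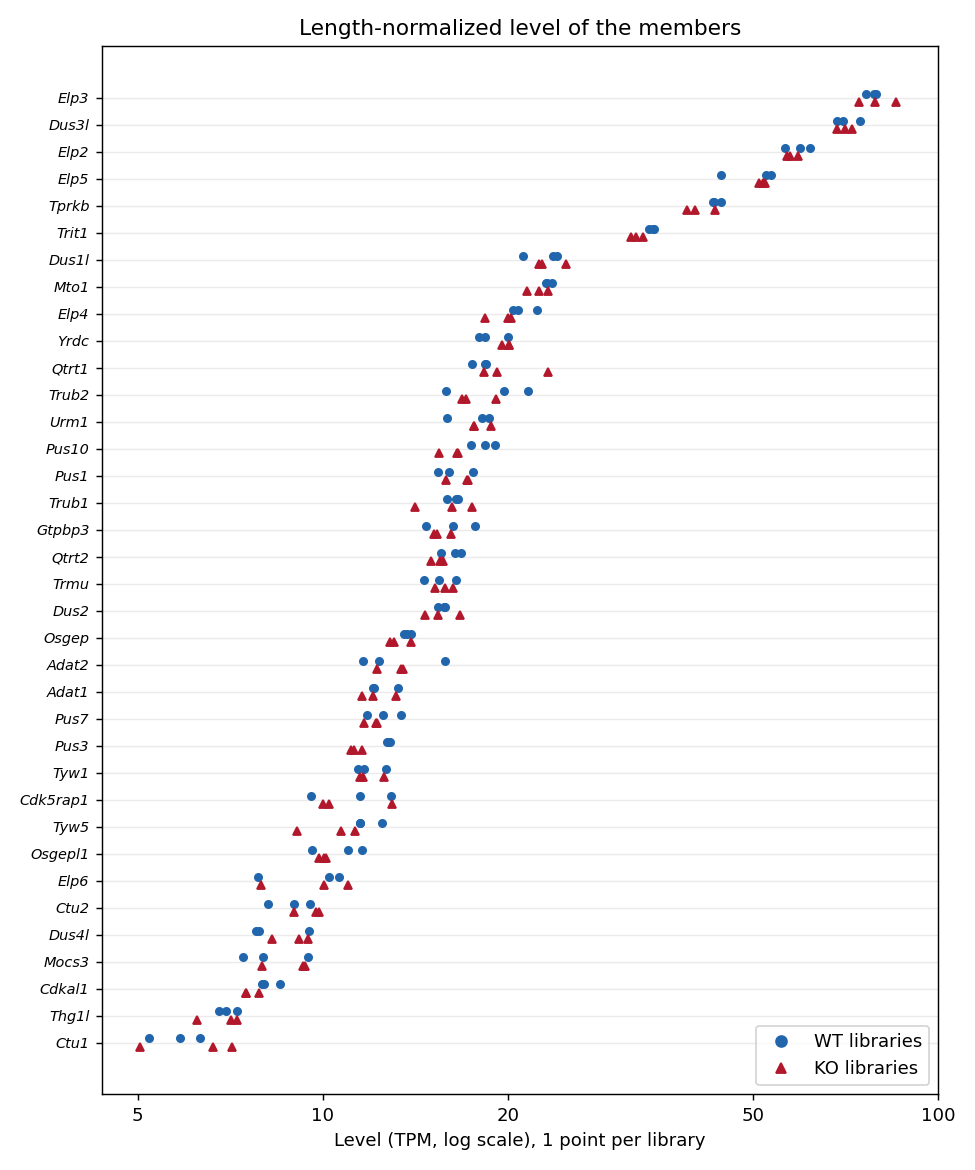
Level of 36 members in each library (TPM by all annotated exons, log axis; circles WT, triangles KO; 3 libraries each), ordered by mean. Elp3, Dus3l, Elp2, Elp5, Tprkb and Trit1 sit above 30 TPM, and WT and KO points intermix for most members; Adat3, at 0 in every library, is not drawn.

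The level of a member depended on the exon length it was divided by. With the longest transcript in place of all exons, Cdkal1, the methylthiotransferase that acts on t6A, was at 18.8 TPM in place of 7.89, as its annotated exons span 12799 bases against 4383 in its longest transcript. The order at the top changed too: Elp2 stood highest at 86.5 TPM over all libraries and Tprkb came next at 83.0 TPM, with ranges that overlapped. Both were above Elp3 (66.2 TPM), Elp5 (65.6 TPM) and Dus3l (61.8 TPM) in every library, and the ranges of these last members overlapped one another. Trit1 was at 27.4 TPM, below Mto1 (32.1 TPM) and Urm1 (28.2 TPM), and Ctu1 was again lowest of the 36 members with counts, at 4.92 TPM. In all, 5 of the 36 moved by over 1.5 times, and the order at the top is thus not settled by these counts. TPM was used only to set genes side by side: the median of all genes tested was lower in KO by a log2 ratio of -0.066 in TPM and did not move on the CPM scale (0.00013), so KO and WT are compared below in CPM.

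Adat3, the partner subunit of the wobble adenosine deaminase, was listed at 0 in all 6 libraries. All 1648 bases of its exons on chromosome 10 (80602880 to 80607654, plus strand) lie within exons of Scamp4 and Gm49322 on the same strand, and a read that falls in several genes is not assigned to any. The 0 is thus no measure of the gene's level, and the planned ratio of Adat2 to Adat3 could not be computed. Adat2, the catalytic subunit, was at 4.40, 5.81 and 4.77 CPM in the WT libraries and at 4.81, 5.26 and 5.40 CPM in the KO libraries, which overlapped.

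Strand mattered for other members. Pus3, a pseudouridine synthase, has 2618 of its 2972 exon bases opposite exons of Hyls1, and its 1933 stranded counts shrank to 49 when strand was ignored. Ctu2, which lies opposite Piezo1 over 2441 exon bases, and Pus1, which lies opposite Gm15559 and Gm26515, kept 69.7% and 70.4% of their counts. Trub2, Osgepl1, Dus2 and Tprkb kept between 90.7% and 93.7%, and the other 29 members with counts kept at least 95%.

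**Figure D2:**
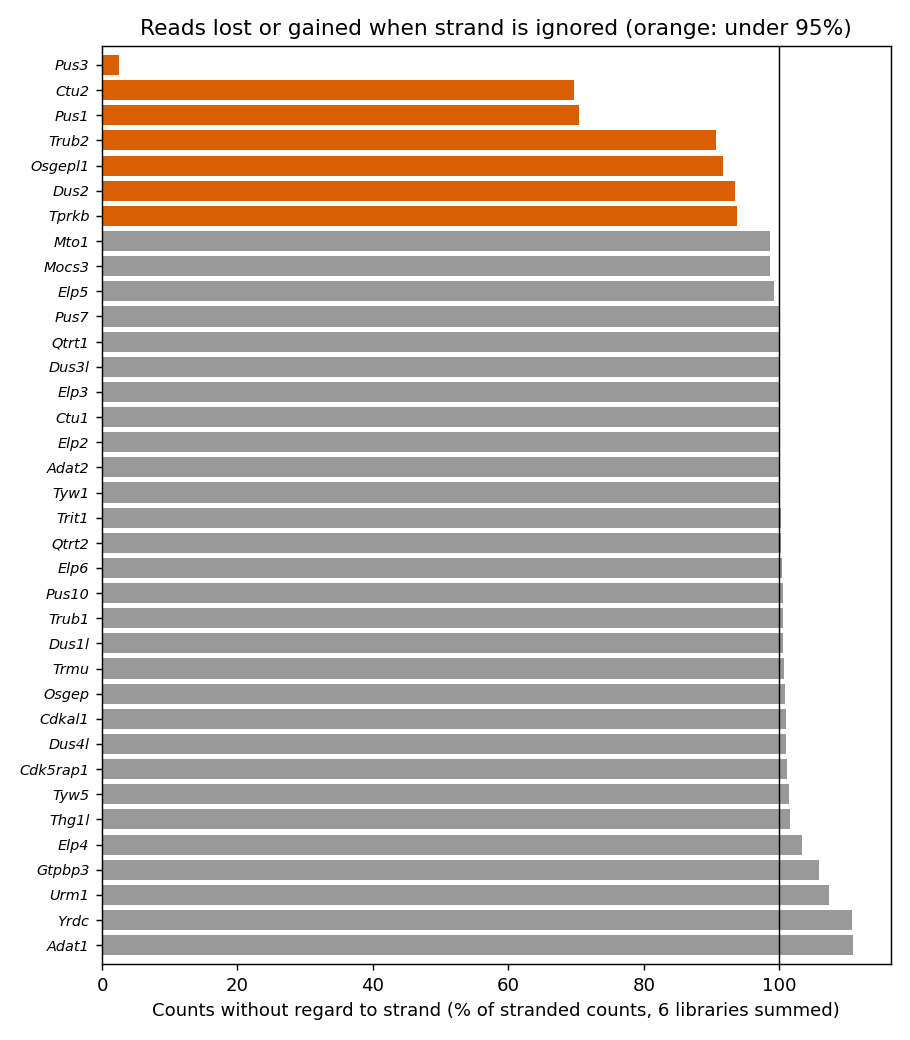
Counts without regard to strand as a percentage of stranded counts, summed over 6 libraries, for 36 members; bars under 95% are orange. Pus3 falls to 2.53%, and Adat1 and Yrdc reach 111%.

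The question of the study, how loss of TRMT1L changes brain RNA, was then asked of the members. None of the 36 members that passed the filter on low counts had an adjusted p under 0.05 in edgeR's quasi-likelihood test over 21237 genes, of which 0.00942% did. The smallest adjusted p of a member was 0.627. Without adjustment 1 member, Qtrt1, had a p under 0.05, which is 2.78% of members against 7.92% of all genes tested. KO and WT libraries did not overlap for 3 members (8.33%), against 14.4% of all genes, with KO higher for 1 member (7.46% of all genes) and lower for 2. Estimated folds ran from 0.915 for Tyw5 to 1.17 for Qtrt1.

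The size of change that these libraries leave room for can be read from the 95% intervals. All 36 intervals lay within a change of 1.5-fold in either direction, and 23 lay within 1.2-fold. The lowest bound of any member was 0.778-fold, for Tyw5, and the highest was 1.43-fold, for Ctu1, the tested member with the fewest counts, 808 over 6 libraries. Among the narrowest, Elp2 lay between 0.954 and 1.09-fold, Dus3l between 0.962 and 1.12-fold and Tprkb between 0.903 and 1.07-fold. These intervals are for single genes and are not adjusted for their number.

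**Figure D3:**
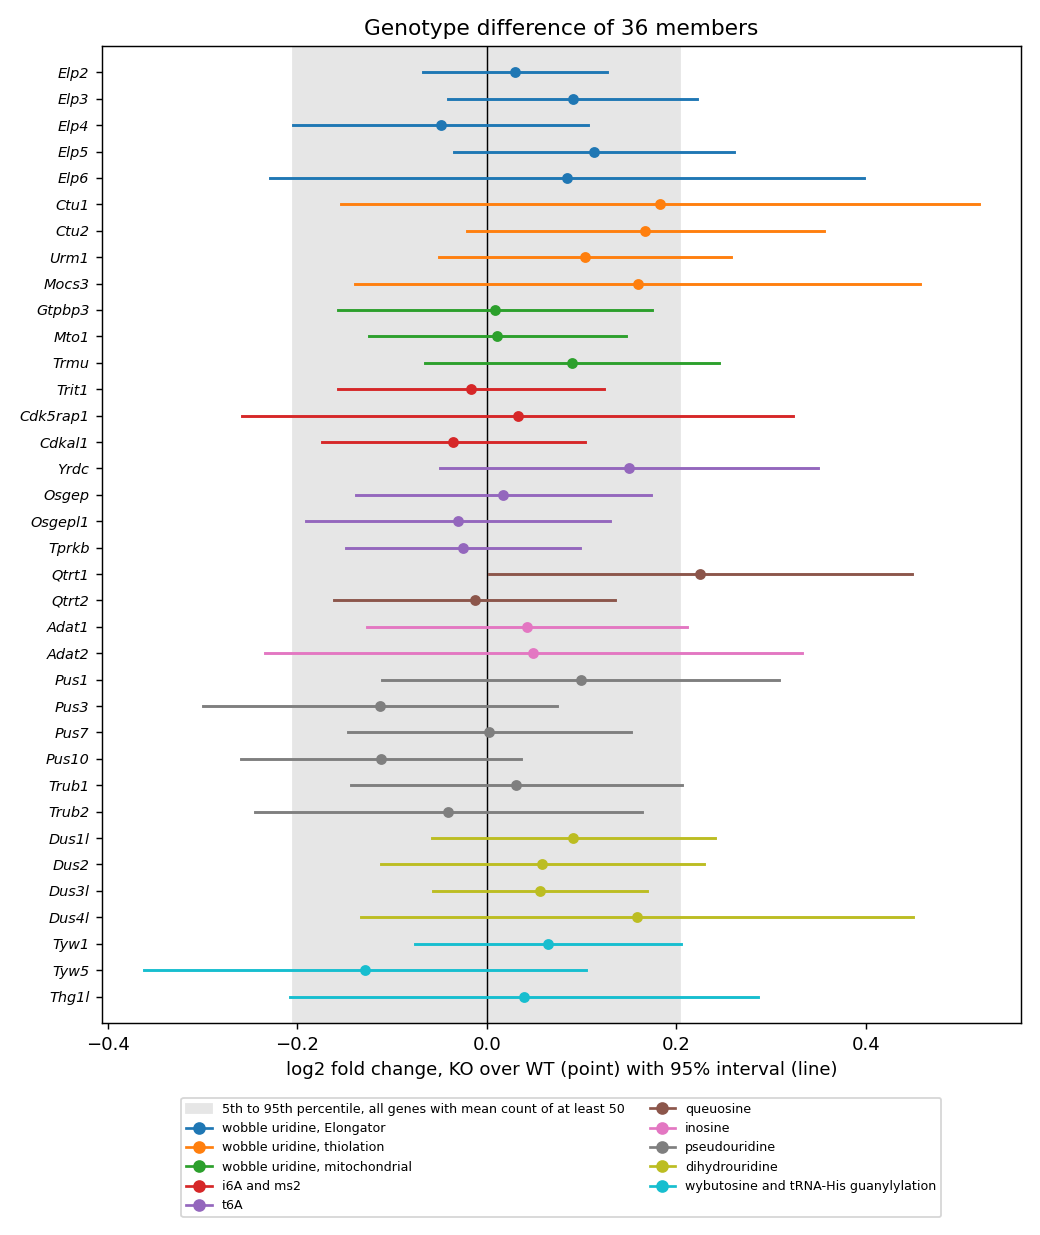
Log2 fold change of KO over WT (points) with 95% intervals (lines) for 36 members, coloured by pathway; grey marks the 5th to 95th percentile (-0.20 to 0.20) of 16184 genes with a mean count of at least 50. Of the members, only the interval of Qtrt1 leaves out 0, and its point alone lies outside the grey band.

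Qtrt1 is the catalytic subunit of the enzyme that exchanges guanine for queuine in tRNA. It was at 9.34, 9.12 and 9.12 CPM in the WT libraries and at 10.1, 12.3 and 9.85 CPM in the KO libraries. Every KO library was above every WT library, with KO library 2 far above the other two. The log2 fold change was 0.23 (SE 0.102; unadjusted p = 0.048 and adjusted p = 0.627 in edgeR), and without KO library 2 it was 0.12. Corrected for GC content it was 0.15, with an unadjusted p of 0.168. Its partner Qtrt2 was at 18.6, 19.1 and 20.5 CPM in WT and 18.5, 19.5 and 19.6 CPM in KO, and its log2 fold change was -0.013 (SE 0.0677). The log2 ratio of Qtrt1 to Qtrt2 counts was -1.07 ± 0.0886 for WT and -0.842 ± 0.166 for KO (SD, n = 3; exact permutation test, two-sided, p = 0.2, adjusted over 4 ratios 0.8), and the smallest p this design allows is 0.1. The difference of 0.23 was 0.14 without KO library 2 and 0.31 without KO library 3.

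KO libraries were all below WT for 2 of the 36 members, Pus3 and Pus10, as for 6.97% of all genes tested. Both are pseudouridine synthases, of 6 in the list, and no test was made of the class. Pus3 was at 9.84, 9.47 and 10.1 CPM in WT and 9.21, 8.94 and 9.02 CPM in KO (log2 fold change -0.11, SE 0.0852; edgeR adjusted p = 0.772). Pus10 was at 21.2, 19.9 and 19.9 CPM in WT and 19.2, 17.9 and 19.5 CPM in KO (log2 fold change -0.11, SE 0.0673; edgeR adjusted p = 0.710). The gap between the nearest KO and WT libraries was 0.265 CPM for Pus3 and 0.399 CPM for Pus10, against 0.506 CPM for Qtrt1. The other 4 of this class overlapped: Pus1 at 0.10 (0.015 after the GC correction described below), Trub1 at 0.031 and Pus7 at 0.0029 had positive log2 fold changes, and Trub2, a mitochondrial TruB relative, was at -0.040.

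**Figure D4:**
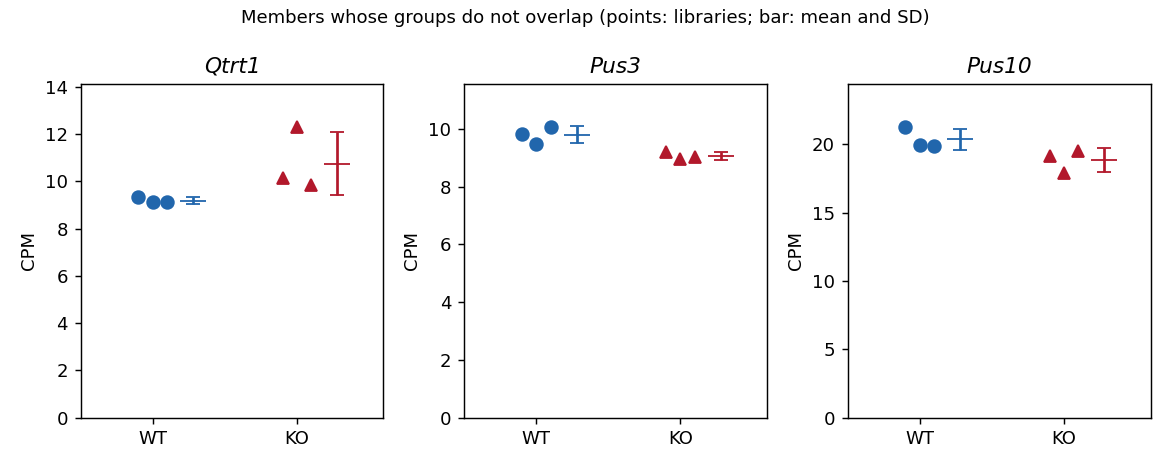
CPM in each library (circles WT, triangles KO) with mean and SD (bars, n = 3) for Qtrt1, Pus3 and Pus10, axes from 0. Qtrt1 is 9.12 to 9.34 in WT and 9.85 to 12.3 in KO, and the gaps between the groups are 0.506 CPM for Qtrt1, 0.265 CPM for Pus3 and 0.399 CPM for Pus10.

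Elongator builds the side chain of wobble uridine. Elp3 was at 61.3, 57.5 and 62.4 CPM in WT and at 68.5, 59.8 and 64.6 CPM in KO, and the groups overlapped (log2 fold change 0.091, SE 0.0601; 0.042 without KO library 1 and 0.14 without KO library 2). The scaffold subunit Elp2 was among the steadiest members, at 96.7, 97.5 and 93.5 CPM in WT and 99.6, 96.6 and 97.5 CPM in KO. Its coefficient of variation over the 6 libraries was 2.06%, close to 2.09% for Trit1. Elp4, Elp5 and Elp6 form a ring that joins the complex. Elp5 was at 31.7, 30.2 and 26.9 CPM in WT and 31.4, 32.2 and 32.5 CPM in KO, where WT library 3 was low and the groups overlapped; the log2 fold change of 0.11 was 0.050 without WT library 3 and 0.17 without WT library 1. Elp4 (log2 fold change -0.049, and -0.0031 without KO library 2) and Elp6 (0.085) overlapped too: Elp4 was at 17.5, 18.5 and 18.2 CPM in WT and 17.7, 16.3 and 18.3 CPM in KO, and Elp6 at 7.86, 7.37 and 5.96 CPM in WT and 7.71, 6.12 and 8.63 CPM in KO. The log2 fold change of Elp6 was -0.030 without KO library 3 and 0.21 without KO library 2. The log2 ratio of Elp3 to the mean of the other four was 0.682 ± 0.102 for WT and 0.731 ± 0.0740 for KO (SD, n = 3; exact permutation test, p = 0.5).

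All 4 members of the thiolation branch had a positive log2 fold change, also after GC correction, and none passed a threshold. Of all genes tested 50.1% were positive, and 75.7% of those with a mean count of at least 50 and a GC content at or above 50.4%, where all 4 lie. Mocs3 activates Urm1 as a sulfur carrier, and Ctu1 with Ctu2 places the sulfur on the tRNA. Ctu2 was at 12.7, 11.6 and 11.1 CPM in WT and 13.5, 12.4 and 13.9 CPM in KO (log2 fold change 0.17, SE 0.0860; edgeR unadjusted p = 0.0767), with KO library 2 below WT library 1. Ctu1 was at 3.33, 3.92 and 3.83 CPM in WT and 3.34, 4.40 and 4.81 CPM in KO (0.18, SE 0.154), and its log2 fold change was 0.068 without KO library 3 and 0.32 without KO library 1. Urm1 (0.10, SE 0.0703) and Mocs3 (0.16, SE 0.136) overlapped between the groups as well. The log2 ratio of Ctu1 to Ctu2 was -1.68 on average in both groups (exact permutation test, p = 1).

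In mitochondria, Gtpbp3 and Mto1 act together on the same wobble uridine that Trmu thiolates. Gtpbp3 was at 16.7, 17.7 and 15.5 CPM in WT and 16.3, 16.2 and 17.6 CPM in KO. Mto1 was at 24.3, 24.1 and 24.8 CPM in WT and 23.4, 24.5 and 25.8 CPM in KO. Both had log2 fold changes near 0 (0.0089 and 0.011), and their log2 ratio was -0.557 ± 0.117 in WT and -0.558 ± 0.0391 in KO (SD, n = 3; exact permutation test, p = 1). Trmu was at 0.090 (SE 0.0710).

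Members that modify the purine beside the anticodon were also within the spread between libraries. Yrdc, which makes the activated threonylcarbamoyl group, had a log2 fold change of 0.15 (SE 0.0911), with 9.37, 8.90 and 10.5 CPM in WT and 10.4, 10.7 and 10.8 CPM in KO. KO library 1 alone fell below the highest WT library. Osgep, the catalytic subunit of KEOPS, was at 0.017, Tprkb at -0.025 and the mitochondrial Osgepl1 at -0.030. Trit1 (-0.017), Cdkal1 (-0.035) and the mitochondrial methylthiotransferase Cdk5rap1 (0.033) followed, the last with a coefficient of variation of 13.7%. In wybutosine synthesis Tyw1 was at 0.065 and the hydroxylase Tyw5 at -0.13 (SE 0.107), and the guanylyltransferase Thg1l was at 0.039.

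All 4 dihydrouridine synthases had positive log2 fold changes, 0.091 for Dus1l, 0.059 for Dus2, 0.057 for Dus3l and 0.16 for Dus4l, with unadjusted p from 0.207 upward in edgeR. After GC correction, described below, Dus3l was at -0.033, Dus1l at 0.021, Dus2 at 0.018 and Dus4l at 0.19, so the shared sign did not hold. Of single genes, 50.1% of all tested were positive before correction. With a mean count of at least 50, the share was 75.7% at or above 50.4% GC, where Dus1l, Dus2 and Dus3l lie. Below that GC content, where Dus4l lies, it was 35.5%. Dus4l, at 3.98, 3.92 and 4.98 CPM in WT and 4.86, 4.40 and 5.12 CPM in KO, overlapped through WT library 3. Adat1, the deaminase that acts beside the anticodon of alanine tRNA, was at 0.043 and Adat2 at 0.049, and after GC correction they were at 0.022 and 0.000047. Without GC correction, Adat2 was at -0.035 without WT library 1 and at 0.17 without WT library 2.

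The 7 members counted above, whose start region is shared without overlap, were set beside their divergent neighbours. Log2 fold changes were -0.049 for Elp4 and -0.13 for Immp1l, 0.17 for Ctu2 and 0.15 for Rnf166, and 0.065 for Tyw1 and 0.081 for Sbds. In these 3 pairs the groups did not overlap for the neighbour and overlapped for the member; 14.4% of all genes tested did not overlap, and with 7 neighbours nothing is read from the count. Pus3 was the reverse case, at -0.11 without overlap beside Ddx25 at 0.033 with it. Both genes overlapped in the other 3 pairs, Mocs3 (0.16) with Dpm1 (0.031), Osgep (0.017) with Apex1 (-0.0019) and Dus4l (0.16) with Cog5 (0.0074). None of the 7 neighbours had an adjusted p under 0.05 in edgeR, and their smallest unadjusted p was 0.0804 (Rnf166). Differences within pairs were not tested.

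Of the 36 members, 26 (72.2%) had a positive log2 fold change, against 50.1% of all genes tested, and their median was 0.041 against 0.00013. The members were also described by the GC content of the transcript. Of the 18 members at or above the members' median GC of 50.4%, all 18 had a positive log2 fold change (median 0.091), and of the 18 below it 8 did (median -0.015). The same split was present across the transcriptome: among genes with a mean count of at least 50, 75.7% of 6722 at or above that GC content were higher in KO and 35.5% of 9462 below it. With the dependence on GC content removed in each library, 15 of 18 GC-rich and 12 of 18 GC-poor members were positive, with medians of 0.030 and 0.012, and the corresponding shares of all genes were 52% and 50.6%. In total 27 of 36 members (75%) were then positive, against 26 before, while their median went from 0.041 to 0.022. The positive values include some near 0, such as 0.000047 for Adat2 and 0.0015 for Cdkal1. What underlies the share of positive members was not tested. The sign changed for 7 members, Elp4, Gtpbp3, Mto1, Cdkal1, Osgepl1, Qtrt2 and Dus3l, named after their values were seen. Of those that kept their sign, 16 had a value smaller by over 1.5 times after correction, among them Yrdc (0.087), Elp6 (0.050) and Trmu (0.037), and 2 a larger one, Pus7 (0.025) and Trub1 (0.051), while 11 stayed within that limit. The split by GC content was also chosen after the values were seen.

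**Figure D5:**
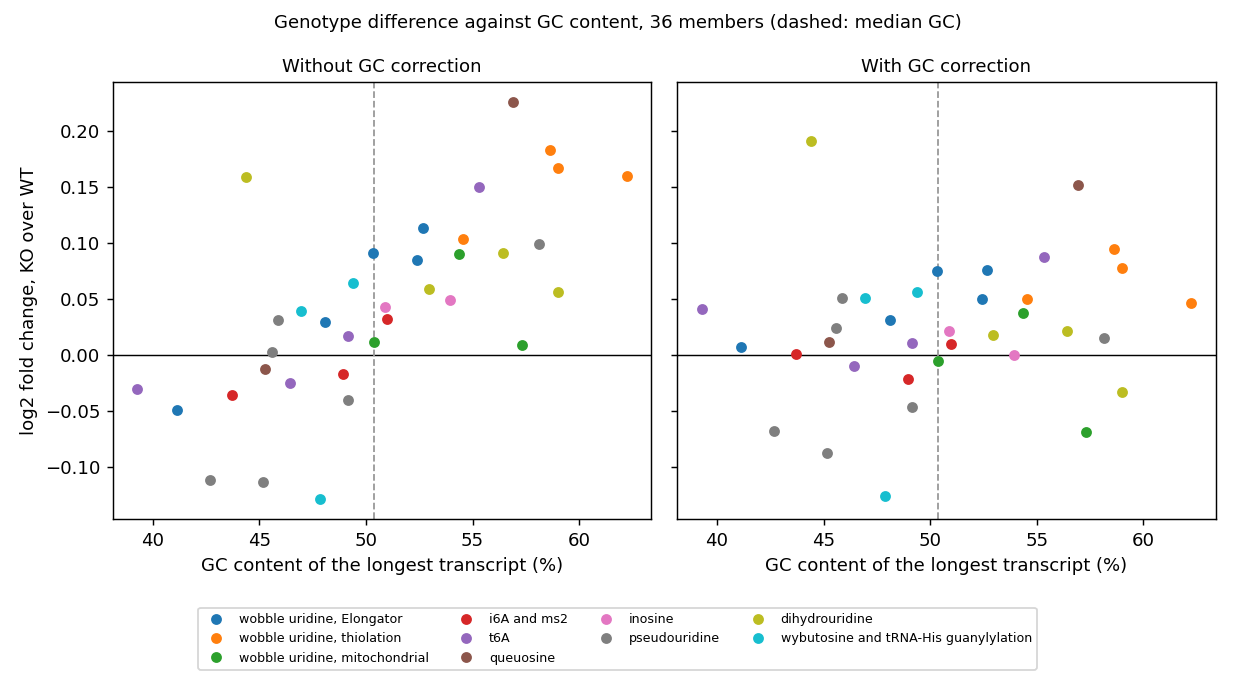
Log2 fold change of KO over WT against GC content of the longest transcript for 36 members, before and after GC correction, coloured by pathway; the dashed line is the members' median GC, 50.4%. Before correction 18 of 18 points on the right of the line and 8 of 18 on its left are above 0; after it 15 and 12 are.

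The 4 transcripts of the thiolation branch have a GC content of 54.6% to 62.2%, and after correction the log2 fold change of Ctu1 was 0.094, of Ctu2 0.078, of Urm1 0.050 and of Mocs3 0.047. Pus3 and Pus10, with 45.1% and 42.7% GC, moved to -0.087 and -0.068. Dus4l, at 44.4% GC, moved from 0.16 to 0.19. By library, the GC-rich members were above the WT mean by a median log2 of 0.021 in KO library 1, 0.10 in KO library 2 and 0.12 in KO library 3. The WT libraries were at 0.011, 0.011 and -0.015. Over all 36 members the median was 0.010 in KO library 1, 0.010 in KO library 2 and 0.077 in KO library 3. Without KO library 3, 21 of 36 members had a positive log2 fold change and the median was 0.021.

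Other genes of these pathways, 26 of 27 listed by name and matched, were counted in the same way. 0 had an unadjusted p under 0.05 in edgeR, against 7.92% of all genes tested, and 0 had groups that did not overlap, against 14.4%. The corresponding counts of members were 1 and 3, and the difference between the lists was not tested. Their median log2 fold change was 0.044, with 18 positive and 8 negative, from -0.13 for the wybutosine enzyme Tyw3 to 0.25 for the sulfurtransferase Mpst (SE 0.137). Alkbh8, which methylates the side chain that Elongator starts, had a log2 fold change of -0.014, and Nat10, the acetyltransferase, one of 0.029.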

How the data were processed

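Reads were trimmed with cutadapt 1.9.1 and aligned with STAR 2.7.0f, per the submitters' processing notes. The authors deposited raw counts per gene for each of 6 libraries, and no genome build is given in the sources used here. The 55450 gene identifiers equal those of GENCODE M21 (GRCm38), which supplied names, lengths and positions. The deposited column for the strand opposite to the first read was used, as it held 94.6% to 94.8% of the stranded counts. The 4 rows that name no gene were left out.

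Genes were filtered with filterByExpr, scaled by TMM and tested across all genes in R 4.3.3 with edgeR 4.0.16 (quasi-likelihood test, genotype as sole factor, two-sided, Benjamini-Hochberg adjustment, threshold 0.05). SE is the log2 fold change divided by the square root of F, and 95% intervals use the test's degrees of freedom. GC correction subtracted a lowess curve per library. DESeq2 1.42.0 and limma 3.58.1 were alternatives, and the test was checked on simulated data. The members and lists were chosen with earlier results of these data known.

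All members are accounted for. A member has its value in every library if its unadjusted p is under 0.05, its groups do not overlap, its level is highest or lowest, or it belongs to a subunit pair; Yrdc and Dus4l, and the partner genes with values, were named after their values were seen. 1 partner gene symbol, Tp53rk, was not matched. The result for 1 partner gene is not reported here, and the gene remains in the fits and counts.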

Additional observations from a re-analysis of the deposited data

How the results depend on the processing

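None of the members had an adjusted p under 0.05 under any of the 18 alternatives run, and Trmt1l kept its call wherever an adjusted p was given, at -3.62 to -3.46; the DESeq2 Wald test with independent filtering gave an adjusted p for 4 members alone. The median log2 fold change of the members lay between 0.021 and 0.052 and was lowest without KO library 3 (0.021) and with GC correction, with (0.021) or without (0.022) the replicate block. Genes called over the whole table numbered 2, and 298 without a filter, 26 with the DESeq2 Wald test, 15 with it and no independent filtering, 1 among protein-coding genes, 4 with the replicate block and from 2 to 5 leaving out 1 library. Members with an unadjusted p under 0.05 numbered 1, and 0 with a mean count of at least 50, total counts, either DESeq2 test, limma-voom, protein-coding genes, the replicate block, GC correction or both together, and from 0 to 2 leaving out 1 library (Ctu2 and Elp5 without WT library 1, Ctu2 and Elp3 without KO library 2, Yrdc without WT library 3, chosen after their values were seen). Of all genes tested, 1360 of 21571 had such a p without WT library 1, 1374 of 21749 without WT library 3 and 1574 of 21775 without KO library 2. The number was 1193 of 21674 without WT library 2, 924 of 21237 with GC correction and 2506 of 37245 without a filter. Partner genes with such a p numbered 0, with 1 when no filter was used and from 0 to 2 leaving out 1 library. The cause of these moves was not tested.

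Log2 fold changes near 0 changed sign: Gtpbp3 to -0.0012 with total counts, -0.0022 among protein-coding genes, -0.068 with GC correction and -0.067 with the replicate block and GC correction. Under those last 2 settings Qtrt2 was at 0.012 and 0.012, Mto1 at -0.0054 and -0.0065, and Elp4 at 0.0071 and 0.0056. With GC correction Dus3l was also at -0.033, Osgepl1 at 0.041 and Cdkal1 at 0.0015. Leaving out 1 library gave -0.035 to 0.17 for Adat2, -0.042 to 0.030 for Qtrt2, -0.039 to 0.055 for Gtpbp3, -0.030 to 0.21 for Elp6 and -0.025 to 0.044 for Mto1. It moved others without a change of sign, with 0.068 to 0.32 for Ctu1, 0.042 to 0.14 for Elp3, -0.084 to -0.0031 for Elp4, 0.050 to 0.17 for Elp5, 0.013 to 0.043 for Elp2 and 0.12 to 0.29 for Qtrt1. The difference in log2 ratio of Gtpbp3 to Mto1 was 0.0062 without regard to strand and -0.063 to 0.054 leaving out 1 library, that of Qtrt1 to Qtrt2 0.14 to 0.31, that of Ctu1 to Ctu2 -0.13 to 0.16 and that of Elp3 to the other subunits -0.000054 to 0.10. The median level was 14.4 TPM without regard to strand and 18.0 TPM with the longest transcript. Same-numbered KO and WT libraries deviated from their group means with correlations of 0.039, -0.090 and -0.12 across 16184 genes, which is no pairing by number; with the replicate block Qtrt1 was at 0.22. Pus3 had too few counts to be tested without regard to strand.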
